A study of Drosophila melanogaster with 9 samples.

Results

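Glycolysis breaks glucose down to pyruvate in a chain of cytosolic enzymes, and lactate dehydrogenase turns pyruvate into lactate. In the fly nervous system, glial cells are known to run this pathway strongly and to pass lactate on to neurons. ERR is the fly estrogen-related receptor, a nuclear receptor that is known in Drosophila embryos and larvae to switch on the genes of glycolysis and Ldh. The 10 genes described here are 8 glycolytic enzyme genes (Hex-A, Pfk, Ald1, Tpi, Gapdh1, Pgk, Eno and Pyk), the lactate dehydrogenase gene Ldh, and ERR. They were taken by symbol, with earlier results of these data known; all 10 were found among the 17421 genes of the deposited table, and all 10 were among the 9384 genes with a mean level high enough for testing.

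The study read transcripts from their 3' ends in the central nervous system (brain and nerve cord) dissected from Drosophila larvae of the 1st instar kept at 25 °C. Canton-S, a wild-type strain, was set against 2 homozygous mutants: elav5, in which elav carries a deletion, and elav5/fne, in which fne is deleted as well. Each genotype had 3 libraries, and the larvae were chosen by hand with the help of a visible marker. Both genes encode ELAV/Hu proteins, RNA-binding proteins of neurons that shape splicing and select transcript ends. The genetic background of the mutant lines and the extent of each deletion are not given in the labels, so a difference between strains and an effect of the deletions cannot be told apart, and a mutant in fne alone was not analysed here. The labels do not say whether the libraries of a genotype came from separate groups of animals. The p-values therefore measure the spread between these samples alone, which may be technical. For Canton-S, elav5 and elav5/fne in this order, elav stood at 1643 ± 68.3, 31.2 ± 9.26 and 45.3 ± 22.6 normalised CPM (SD, n = 3), and fne at 5041 ± 546, 4696 ± 219 and 375 ± 130.

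Levels are given as normalised CPM, reads per gene scaled so that the libraries sum to 1e6 on average, with the scaling between libraries that the authors deposited. Libraries held 15241461 to 18822734 reads in genes, and 3 reads, a floor that covers counting error only, corresponded to 0.150 to 0.196 normalised CPM. As the kit yields about 1 read per transcript end, levels should depend little on transcript length, which was not tested here. Levels of different genes can be set beside each other only roughly, as reads of close copies and of overlapping genes were not separated. Differences are log2 differences on the log2(normalised CPM + 1) scale. A gene is called changed where limma's moderated test, with Benjamini-Hochberg adjustment over all 9384 tested genes, gave an adjusted p under 0.05. The 3 comparisons share libraries: both mutants were set against the same Canton-S libraries, and the comparison of the mutants with each other uses both mutant groups again. The table holds 1 value per gene, summed over its ends, so the choice between ends cannot be seen in it. Hex-A, Pfk, Ald1, Eno and Ldh have more than 1 annotated end, with 2, 2, 4, 3 and 2 in that order.

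In elav5/fne the whole chain was lower. All 9 enzyme genes fell against Canton-S, by 1.00 to 1.71 on the log2 scale, with a median log2 difference of -1.37 against 0.15 over all tested genes. Of all tested genes, 17.5% fell and 25.8% rose in this comparison. The 9 genes also all fell against elav5, by 0.85 to 1.39 with a median log2 difference of -1.10, where the median of all genes was 0.15 and 12.3% of genes fell and 18.5% rose. In elav5 against Canton-S, 2 of the 9 fell, Hex-A and Pfk, in a comparison where 7.04% of tested genes fell and 8.17% rose. ERR was not called in any of the 3 comparisons. The scaling between libraries moves all genes together: with TMM scaling the median of all genes in elav5/fne against Canton-S was 0.02 in place of 0.15, and the calls were 2051 higher and 2159 lower in place of 2418 and 1638. Against elav5 they were 1305 higher and 1417 lower in place of 1734 and 1154, and in elav5 against Canton-S, scaling to library totals gave 559 higher and 1182 lower in place of 767 and 661. The 9 enzyme genes fell in both comparisons of elav5/fne under every scaling and every other setting tried. In bulk tissue, fewer cells of a type and less RNA per cell cannot be told apart, and this holds for every difference given here.

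**Figure D1:**
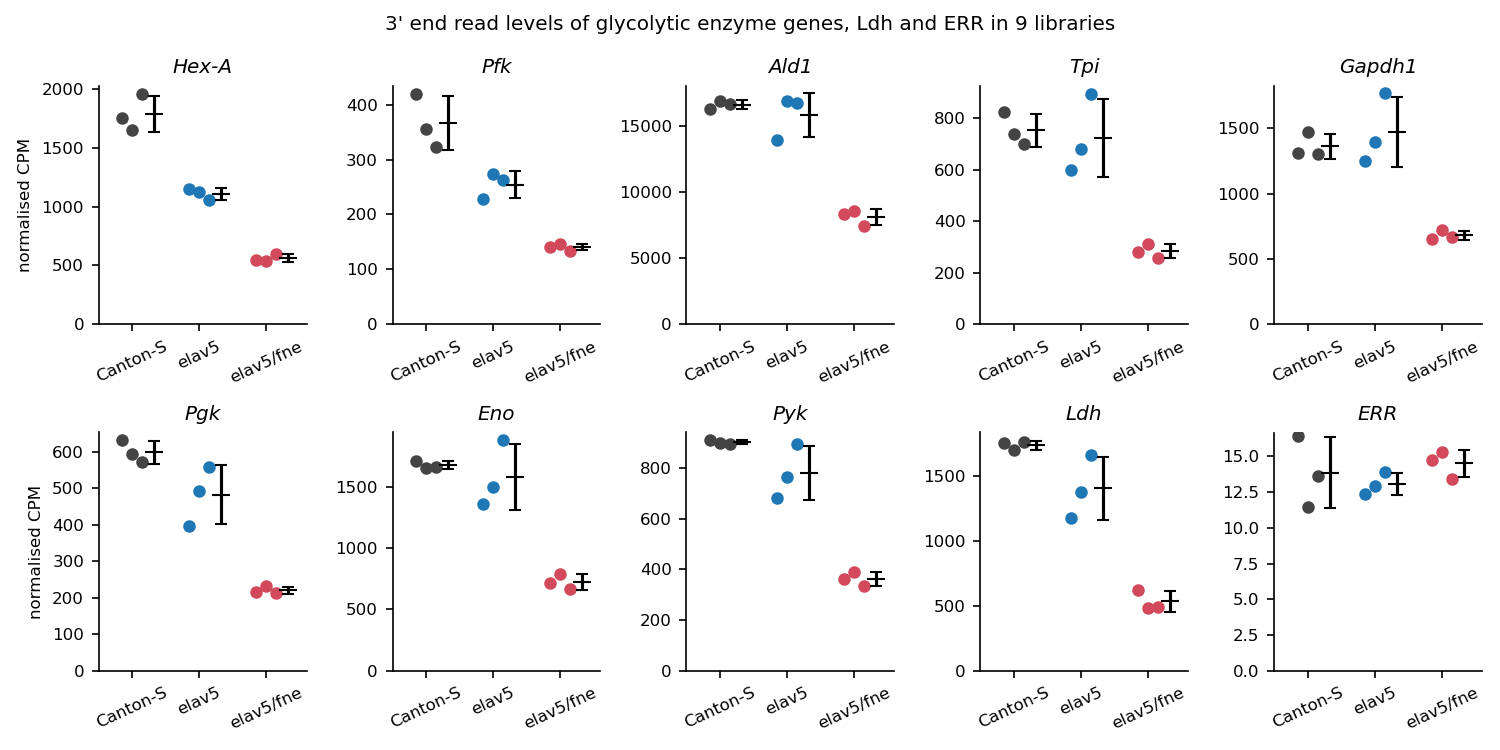
Level of each of the 10 genes in the 9 libraries, in normalised CPM on a linear axis that starts at 0; points are libraries, and the bar beside each group is its mean with the SD (n = 3). For the 9 enzyme genes the elav5/fne points lie below all others, whereas the ERR points of the 3 genotypes overlap.

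Added together, the 9 enzyme genes held 25618 to 26023 normalised CPM in the Canton-S libraries, which was 2.67% to 2.76% of each library. The sum was 20817, 24566 and 25728 in elav5 replicates 1 to 3, and 11881, 12230 and 10794 in elav5/fne. The elav5/fne sum was 45.0% of the Canton-S mean, and 38.2% when Ald1, which made up most of the sum, was left out. The 3 elav5/fne libraries lay far below all others, while elav5 replicates 1 and 2 lay below the Canton-S range and replicate 3 lay inside it. As a share of the library, or without Ald1, elav5 replicate 3 also lay below the Canton-S range, at 2.36% against a lowest value of 2.67%, and at 8976 against 9067 normalised CPM.

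Hexokinase and phosphofructokinase catalyse early steps of the pathway that commit sugar to it. Hex-A, a hexokinase gene on X at 9585675 to 9589813, stood at 1755, 1655 and 1953 normalised CPM in the Canton-S libraries, at 1153, 1120 and 1053 in elav5, and at 548, 535 and 597 in elav5/fne. No library of one genotype reached the range of another, so the levels formed 3 separate steps. In elav5 against Canton-S it fell by 0.69 (SE 0.09, limma adjusted p = 0.00195), and the fall in elav5/fne was 1.67 (SE 0.09, limma adjusted p = 1.77e-06). It also fell by 0.98 between elav5 and elav5/fne (SE 0.09, limma adjusted p = 5.09e-05), which tests the step between the mutants directly.

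Pfk encodes phosphofructokinase, a main control point of the pathway, and lies on 2R at 10109740 to 10117457. Its level was 420, 355 and 323 normalised CPM in Canton-S, 228, 273 and 263 in the elav5 libraries and 141, 146 and 134 in those of elav5/fne. As with Hex-A, the genotypes did not overlap and elav5 lay in between. Pfk fell by 0.52 in elav5 against Canton-S (SE 0.12, limma adjusted p = 0.0167), and the fall in elav5/fne was 1.37 (limma adjusted p = 1.68e-05). Between the mutants the fall was 0.85 (limma adjusted p = 0.000481). The call in elav5 was lost when some single libraries were left out, although the fall remained. The Pfk log2 difference was -0.41 without Canton-S replicate 1 (limma adjusted p = 0.0637) and -0.54 without Canton-S replicate 2 (limma adjusted p = 0.0526). Without elav5 replicate 1 it was -0.44 (limma adjusted p = 0.0525). The Hex-A call was kept in all settings tried, with log2 differences between -0.84 and -0.62.

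Ald1 encodes the aldolase that splits fructose bisphosphate, and it lies on 3R at 26254069 to 26261591. It had the third highest level of all tested genes in Canton-S, with 16297, 16956 and 16702 normalised CPM. The elav5 libraries held 13969, 16958 and 16752, and the elav5/fne libraries 8335, 8617 and 7438. Only elav5 replicate 1 lay below the Canton-S range among the elav5 libraries, while all 3 elav5/fne libraries lay below every other. Ald1 fell by 1.04 in elav5/fne against Canton-S (SE 0.11, limma adjusted p = 7.04e-05). In elav5 its difference was -0.07 with a 95% interval of -0.32 to 0.18, so a fall or rise of that size is not settled by these libraries.

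Tpi, which interconverts the triose products of aldolase and lies on 3R at 30132981 to 30134599, held 823, 739 and 698 normalised CPM in Canton-S. It held 599, 682 and 893 in elav5 and 282, 313 and 258 in elav5/fne. The elav5 libraries spread on both sides of the Canton-S range, and the elav5/fne libraries lay below both. Tpi fell by 1.40 in elav5/fne against Canton-S (SE 0.15, limma adjusted p = 6.20e-05) and by 1.33 against elav5, and its difference in elav5 was -0.07 with a 95% interval of -0.40 to 0.26.

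The enzymes of the lower chain turn triose phosphate into pyruvate and yield ATP. Gapdh1, a glyceraldehyde-3-phosphate dehydrogenase gene on 2R at 7791901 to 7793380, held 1313, 1473 and 1301 normalised CPM in Canton-S, 1250, 1396 and 1769 in the elav5 libraries and 653, 720 and 666 in those of elav5/fne. The Canton-S and elav5 libraries overlapped and the elav5/fne libraries stood apart from both. Gapdh1 fell by 1.00 in elav5/fne against Canton-S (SE 0.13, limma adjusted p = 0.000196). This was the smallest fall of the 9 in that comparison.

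Pgk, the phosphoglycerate kinase gene on 2L at 2746880 to 2753068, held 632, 593 and 571 normalised CPM in Canton-S, 398, 493 and 558 in the elav5 libraries and 215, 232 and 214 in those of elav5/fne. All elav5 libraries lay below all Canton-S libraries, although elav5 replicate 3 came close to the lowest of them. The elav5 difference was -0.32 with a 95% interval of -0.59 to -0.05, but it did not pass after adjustment (limma adjusted p = 0.103), and without elav5 replicate 3 it was -0.43 and passed (limma adjusted p = 0.0336). In elav5/fne Pgk fell by 1.44 against Canton-S (SE 0.12, limma adjusted p = 1.66e-05). Pgk overlaps Bacc and Cwc25 on the other strand, and since the labels do not say whether counting used strand, reads of these genes cannot be told apart with certainty. Bacc had levels of 2230 to 3707 normalised CPM over the 9 libraries. The same holds for Ald1, which overlaps asRNA:CR44321, and for Eno, which overlaps Rrp40 at 7.25 to 16.4 normalised CPM.

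Eno, the enolase gene on 2L at 1724768 to 1729636, held 1713, 1653 and 1665 normalised CPM in Canton-S, 1359, 1501 and 1883 in the elav5 libraries and 718, 793 and 664 in those of elav5/fne. As for Tpi, the elav5 libraries lay on both sides of the Canton-S range. Eno fell by 1.21 in elav5/fne against Canton-S (SE 0.12, limma adjusted p = 5.36e-05) and its difference in elav5 was -0.10 (95% interval -0.37 to 0.18).

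Pyk, the pyruvate kinase gene that ends the chain and lies on 3R at 22367536 to 22372746, held 910, 898 and 896 normalised CPM in Canton-S. Its level was 681, 763 and 894 in elav5 and 362, 388 and 332 in elav5/fne. The Canton-S libraries lay very close together, with elav5 replicate 3 just below them. Pyk fell by 1.32 in elav5/fne against Canton-S (SE 0.11, limma adjusted p = 1.48e-05), and its elav5 difference was -0.22 (95% interval -0.46 to 0.02, limma adjusted p = 0.201).

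Ldh, which makes lactate from pyruvate and regenerates NAD+ for glycolysis, lies on 3L at 6259105 to 6262694. It held 1755, 1701 and 1762 normalised CPM in Canton-S, 1180, 1380 and 1665 in the elav5 libraries and 627, 486 and 490 in those of elav5/fne. The 3 genotypes did not overlap. Ldh fell by 1.71 in elav5/fne against Canton-S (SE 0.14, 95% interval -2.02 to -1.40, limma adjusted p = 1.46e-05) and by 1.39 against elav5. The elav5 difference against Canton-S was -0.32 and did not pass (limma adjusted p = 0.156). With libraries scaled to their totals, 3 more enzyme genes passed in this comparison by limma, Ldh at -0.47 (adjusted p = 0.0345), Pyk at -0.38 (adjusted p = 0.0286) and Pgk at -0.48 (adjusted p = 0.0228).

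**Figure D2:**
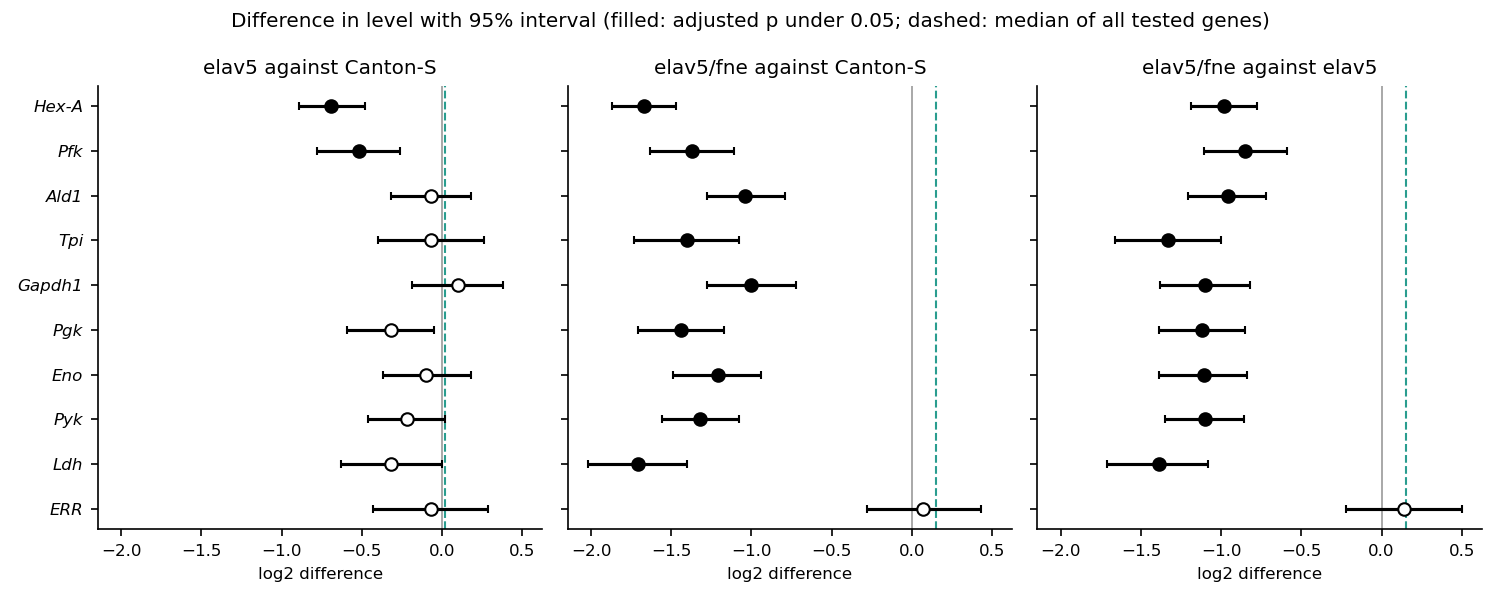
Log2 difference of each gene in the 3 comparisons with its 95% interval from limma; filled points have an adjusted p under 0.05, the grey line marks no difference and the dashed line the median of all tested genes. In both comparisons of elav5/fne the intervals of all 9 enzyme genes lie below the grey line, and that of ERR spans it in every panel.

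Read by overlap alone, 5 of the 9 enzyme genes (Hex-A, Pfk, Pgk, Pyk and Ldh) were lower in every elav5 library than in every Canton-S library, against 17.4% of all tested genes. For elav5/fne the 9 of 9 were lower without overlap against Canton-S, where 23.7% of genes were, and against elav5, where 17.0% were. An exact two-sided permutation test on each gene alone gave p = 0.1 for all 9 genes in both comparisons, the smallest value that 3 against 3 libraries allow. This value follows from the lack of overlap and adds nothing to it.

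The falls were unequal, so the make-up of the enzyme transcripts shifted. Ald1 made up 64.4% ± 0.777 (SD, n = 3) of the summed level in Canton-S and 69.8% ± 0.821 in elav5/fne, without overlap. The share of Ldh was 6.73% ± 0.171 for Canton-S, 5.92% ± 0.479 for elav5 and 4.60% ± 0.653 for elav5/fne, and the 3 genotypes did not overlap. The Hex-A share was 6.92% ± 0.598 for Canton-S, 4.73% ± 0.738 for elav5 and 4.84% ± 0.612 for elav5/fne, and its shares in both mutants overlapped. Ldh was thus lower in both its level and its share, whereas Ald1 was lower in level and higher in share. These shares are descriptions and were not tested.

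ERR, on 3L at 8183361 to 8186671, had a far lower level than the enzyme genes, at 47.1% of the way up the ranked tested genes in Canton-S. It held 16.4, 11.5 and 13.7 normalised CPM in Canton-S, 12.4, 12.9 and 13.9 in the elav5 libraries and 14.8, 15.3 and 13.4 in those of elav5/fne, from 192 to 328 reads per library. Canton-S replicates 1 and 2 were the highest and the lowest of all 9 libraries, so both mutants lay inside the wild-type range. The difference in elav5 was -0.07 (95% interval -0.43 to 0.29, limma adjusted p = 0.797). In elav5/fne it was 0.07 against Canton-S (95% interval -0.28 to 0.43, limma adjusted p = 0.726) and 0.14 against elav5 (95% interval -0.22 to 0.50, limma adjusted p = 0.545). These intervals do not reach a fall of the size seen in any of the 9 enzyme genes in elav5/fne, but they leave room for smaller changes of the transcript, and the data say nothing of the protein. ERR overlaps Uxs on the other strand, which held 2.35 to 6.44 normalised CPM, and the antisense RNA genes asRNA:CR45869 and asRNA:CR45870.

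Among 5983 other genes whose mean reached 10 normalised CPM, the 5 whose profiles over the 9 libraries were most like that of ERR were CG8314, D19A, CG10616, AMPKalpha and z. Their root mean square log2 difference from ERR, after centring each gene on its own mean, was 0.0706, 0.0727, 0.0741, 0.0751 and 0.0804. The same measure lay between 0.541 (Ald1) and 0.806 (Ldh) for the enzyme genes. ERR itself stayed within -0.241 to 0.242 of its mean on the log2 scale, so this measure picks genes that also varied little. The larger values of the enzyme genes follow largely from their fall in elav5/fne. AMPKalpha encodes the catalytic subunit of the energy-sensing kinase AMPK, and a link between any of these 5 genes and ERR was not tested.

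The remaining enzymes of the chain that were well expressed also fell in elav5/fne. Pgi, the isomerase that follows hexokinase, held 1172, 945 and 1119 normalised CPM in Canton-S, 740, 790 and 975 in the elav5 libraries and 331, 367 and 327 in those of elav5/fne, and fell by 1.65 against Canton-S (SE 0.12, limma adjusted p = 9.77e-06). Gapdh2, a second gene for the Gapdh1 reaction, fell by 1.27 from a Canton-S mean of 3153, and Pglym78, a phosphoglycerate mutase gene, fell by 1.31 from 951. With these 3, each step from hexokinase to lactate had a gene that fell. Reads of Gapdh1 and Gapdh2, which are close copies, may be shared between them.

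Of the 14 other enzyme genes and copies listed, 6 were expressed enough to be tested. In elav5/fne against Canton-S, 3 fell and 1 rose, beside 17.5% and 25.8% of all tested genes, with a median log2 difference of -0.79. Against elav5, 5 fell and 0 rose, beside 12.3% and 18.5% of all tested genes. The gene that rose was CG7069, a predicted pyruvate kinase gene, with a level of 6.02 ± 3.73 normalised CPM for Canton-S, 30.0 ± 8.21 for elav5 and 12.9 ± 0.392 for elav5/fne (SD, n = 3). In elav5 it rose by 2.23 (SE 0.34, limma adjusted p = 0.00362). The rise in elav5/fne was 1.12 (SE 0.34, limma adjusted p = 0.0252), and this call was lost in 8 of the settings tried, with adjusted p-values of up to 0.141. CG7069 begins at 22372835 on 3R, directly after the annotated end of Pyk, and whether its reads belong to longer Pyk transcripts was not tested. CG7059, a predicted phosphoglycerate mutase gene of low level, was at 15.1 normalised CPM in Canton-S and 12.0 in elav5/fne with a difference of -0.32 that did not pass.

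Of 18 listed genes that bring sugar into the chain, store it or take it out, 16 were tested in elav5/fne against Canton-S, of which 4 fell and 5 rose. These counts were near the background, where 17.5% of all tested genes fell and 25.8% rose, and the list median of 0.13 was near the 0.15 of all genes. Glut1, a glucose transporter gene, held 374, 359 and 387 normalised CPM in Canton-S, 308, 398 and 257 in the elav5 libraries and 199, 176 and 155 in those of elav5/fne, and fell by 1.08 (SE 0.15, limma adjusted p = 0.000407). Glyp, glycogen phosphorylase, fell by 0.84, and Glys, glycogen synthase, fell by 1.11. Pgm1, phosphoglucomutase, which links glycogen to glycolysis, fell by 1.11 and was named after its values were seen.

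The 5 genes of this list that rose had means of at most 22.1 normalised CPM in Canton-S. Pepck2, a phosphoenolpyruvate carboxykinase gene of gluconeogenesis, was at 0.651, 3.67 and 1.38 normalised CPM in Canton-S, 30.8, 24.7 and 18.5 in the elav5 libraries and 16.0, 40.8 and 53.0 in those of elav5/fne. In elav5 it rose by 3.25 (SE 0.47, limma adjusted p = 0.00294), and the rise in elav5/fne was 3.68 (SE 0.47, limma adjusted p = 0.000215). The other 4, named after their values were seen, were fbp (fructose-1,6-bisphosphatase, 3.13), Sodh1 (sorbitol dehydrogenase, 2.35), Tps1 (trehalose phosphate synthase, 2.30) and Pfrx (which makes and breaks fructose-2,6-bisphosphate, 1.06), with the log2 differences against Canton-S in parentheses. fbp held 4.91, 5.13 and 4.97 in Canton-S, 81.1, 8.81 and 10.9 in the elav5 libraries and 17.9, 71.1 and 105 in those of elav5/fne. All 5 genes peaked in elav5 replicate 1 and elav5/fne replicate 3 within their genotype, where muscle and gut marker sums peaked too. The part of RNA from those tissues in these rises was not tested.

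Part of the pentose phosphate pathway, which draws glucose phosphate away from glycolysis to make NADPH and ribose, rose in elav5/fne. Of 8 listed genes 7 were tested, 4 of them rose against Canton-S and 0 fell, beside 25.8% and 17.5% of all tested genes, with a median log2 difference of 1.17. Zw, the glucose phosphate dehydrogenase gene that opens the pathway, held 1.95, 0.705 and 1.20 normalised CPM in Canton-S, 4.57, 0.522 and 1.11 in the elav5 libraries and 11.5, 13.6 and 13.4 in those of elav5/fne. All 3 double mutant libraries stood above all others, and Zw rose by 2.63 (SE 0.44, limma adjusted p = 0.00107). Pgd, phosphogluconate dehydrogenase, rose by 1.58, Pgls, the lactonase that acts between Zw and Pgd, rose by 1.34, and Taldo, transaldolase, rose by 1.17. With the muscle marker level in the model the Pgd difference was 1.08 (limma adjusted p = 0.0525) and the Pgls difference 0.83 (limma adjusted p = 0.0534).

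**Figure D3:**
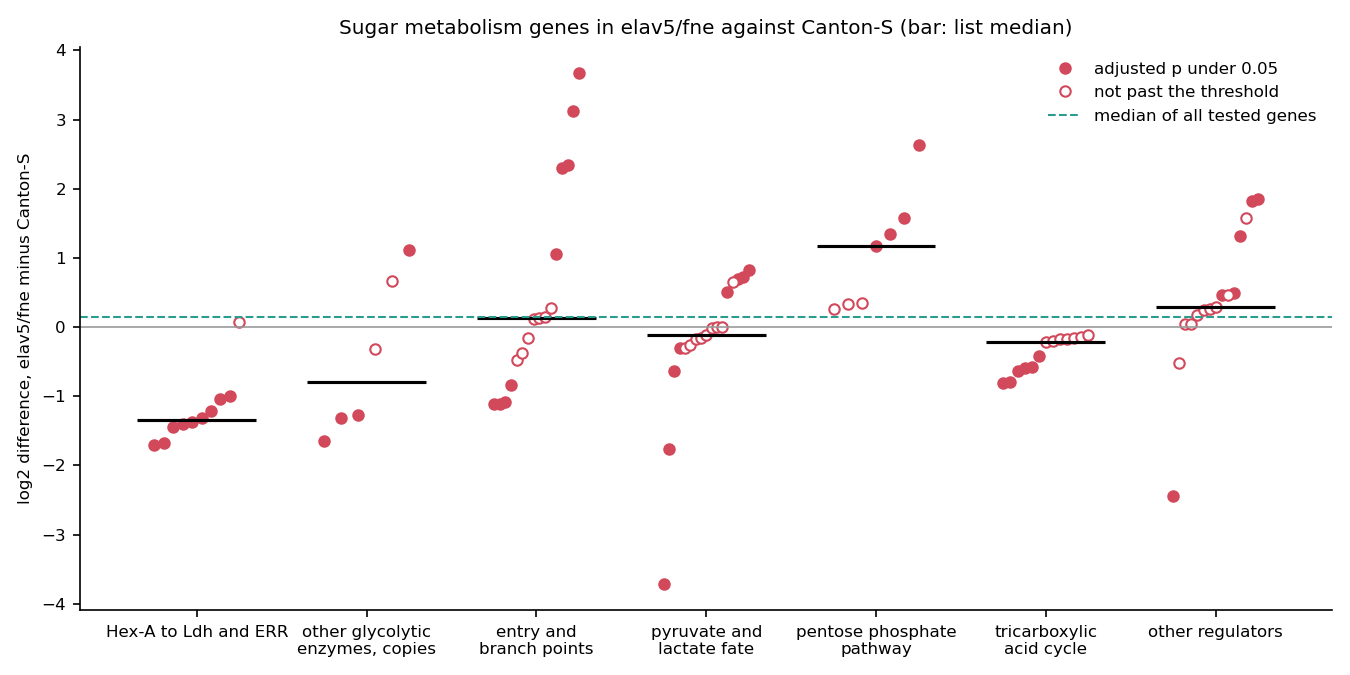
Log2 difference in elav5/fne against Canton-S for each tested gene of 7 lists of sugar metabolism; filled points have an adjusted p under 0.05, black bars are list medians and the dashed line is the median of all tested genes. The enzyme genes lie together below 0 with ERR apart from them, the pentose phosphate genes lie above 0, the tricarboxylic acid cycle genes lie below 0, and the remaining lists spread both ways.

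Downstream of pyruvate the largest difference was that of Men-b, the mitochondrial malic enzyme gene. It held 158, 145 and 138 normalised CPM in Canton-S, 146, 141 and 138 in the elav5 libraries and 11.9, 10.3 and 8.75 in those of elav5/fne. The double mutant was at 7.01% of the Canton-S mean while elav5 overlapped Canton-S, and Men-b fell by 3.72 (SE 0.12, limma adjusted p = 5.25e-07) against Canton-S and by 3.67 against elav5. Men, another malic enzyme gene, went the other way and rose by 0.69 in elav5/fne and by 0.53 in elav5. Of 17 tested genes for pyruvate and lactate use, 4 fell and 4 rose in elav5/fne against Canton-S, counts near the background of 17.5% and 25.8%, with a median log2 difference of -0.12. Sln, a carrier for lactate and related acids, fell by 1.76 from 62.6 ± 9.03 to 17.7 ± 1.28 normalised CPM (SD, n = 3). Got1, the cytosolic aspartate aminotransferase gene, rose by 0.72 in elav5/fne, whereas Got2, named after its values were seen, is the mitochondrial one and fell by 0.64.

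Of 13 tested genes of the tricarboxylic acid cycle, 6 fell in elav5/fne against Canton-S and 0 rose, beside 17.5% and 25.8% of all tested genes, with a median log2 difference of -0.22. Idh3g and Idh3b, subunits of isocitrate dehydrogenase, fell by 0.81 and 0.79, and SdhD and SdhA, subunits of succinate dehydrogenase, fell by 0.64 and 0.59. The falls here were all smaller than the smallest of the 9 enzyme genes of glycolysis. Idh3g fell more in elav5, by 1.17, and was higher in elav5/fne than in elav5 by 0.36 (SE 0.11, limma adjusted p = 0.0283).

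Of 15 other regulators of sugar metabolism, all tested, 5 rose and 1 fell in elav5/fne against Canton-S, beside 25.8% and 17.5% of all tested genes, with a median log2 difference of 0.29. Hnf4, a nuclear receptor known to act on glucose balance in flies, held 16.9, 17.4 and 24.1 normalised CPM in Canton-S, 35.5, 19.8 and 20.3 in the elav5 libraries and 64.8, 75.7 and 75.7 in those of elav5/fne, and rose by 1.85 (SE 0.23, limma adjusted p = 0.000164). Hph, the prolyl hydroxylase that marks the hypoxia factor for breakdown, rose by 1.82, and bigmax, the partner of the sugar sensor Mondo, rose by 1.32. Hr38, a nuclear receptor gene that is switched on by neuronal activity, held 19.9, 22.7 and 26.1 in Canton-S and 3.15, 2.48 and 4.76 in elav5/fne and fell by 2.44 (SE 0.30, limma adjusted p = 0.000165). sima, the hypoxia factor itself, which also switches on glycolytic genes, was at 449 normalised CPM in Canton-S and 466 in elav5/fne with a difference of 0.05 that did not pass, and was named after its values were seen.

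Markers of some cell types moved with genotype beside these differences. Neuron markers summed to 12416 to 12984 normalised CPM in Canton-S, 11332 to 12989 in the elav5 libraries and 6403 to 7810 in those of elav5/fne. All 11 fell in elav5/fne against Canton-S, beside 17.5% of all tested genes, with a median log2 difference of -0.79. The double mutant mean was 57.9% of that in Canton-S for neuron markers, 45.0% for the 9 enzyme genes and 87.3% for glia markers. The glia sum rests much on Gs2, which held 1472 of its mean of 3385 normalised CPM in elav5/fne. Single glia markers ranged in elav5/fne from 28.1% (wrapper) to 216% (Gli) of their Canton-S means. The neuron sum rests much on Rdl, at 2814 of its mean of 7299 normalised CPM in elav5/fne. Single neuron markers ranged from 29.6% (ChAT) to 71.3% (Syn) of their Canton-S means. The 9 enzyme genes ranged from 30.7% (Ldh) to 49.9% (Gapdh1), so the single genes of both lists overlapped. Glia markers summed to 3630 to 4022 in Canton-S, 3474 to 5151 in the elav5 libraries and 2956 to 3757 in those of elav5/fne. Of 12 tested, 2 fell and 3 rose in elav5/fne against Canton-S, counts near the background of 17.5% and 25.8%. Neuroblast markers, of the stem cells that make neurons, summed to 335 to 385, 288 to 401 and 704 to 924 in the same order. Of 10 tested, 8 rose and 0 fell in elav5/fne against Canton-S, beside 25.8% and 17.5% of all tested genes. All markers of these 3 lists had reads in every library. The part of these shifts in the fall of the enzyme genes was not tested.

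**Figure D4:**
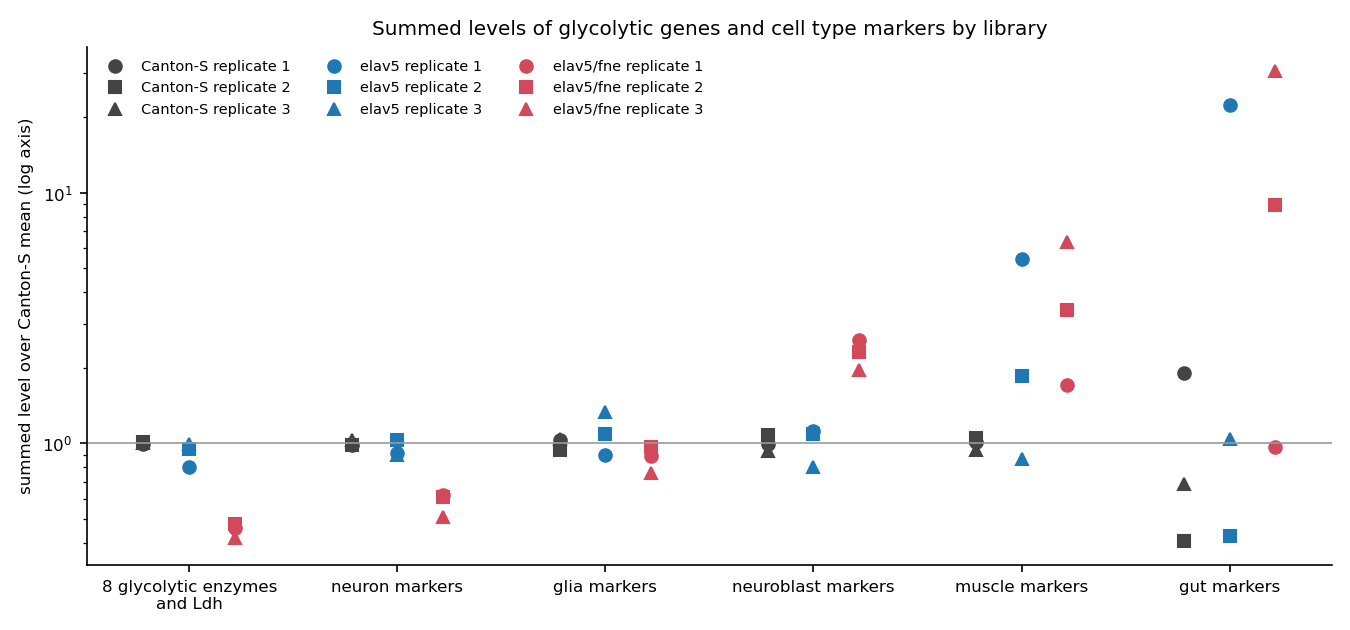
Summed level of the 9 enzyme genes and of 5 marker lists in each library, divided by the Canton-S mean, on a log axis; colours are genotypes and shapes replicates. Enzyme and neuron sums are low in all 3 elav5/fne libraries, and neuroblast and muscle sums lie above the Canton-S range in them. Muscle and gut sums spread between libraries of both mutants.

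Muscle markers summed to 1560 to 1731 normalised CPM in Canton-S, to 8976, 3078 and 1434 in elav5 replicates 1 to 3, and to 2815, 5638 and 10475 in elav5/fne replicates 1 to 3, with reads for all 16 markers in every library. Gut markers summed to 17.1 to 80.5, to 942, 17.9 and 43.7, and to 40.6, 376 and 1295 in the same order, with betaTry at 0 throughout. Of the 16 muscle markers, 7 rose and 0 fell in elav5/fne against Canton-S, with a median log2 difference of 2.25. Of 10 tested gut markers, 0 rose and 0 fell there, where 25.8% of all tested genes rose and 17.5% fell. Fat body markers summed to 234 to 614 in Canton-S, 115 to 213 in the elav5 libraries and 107 to 261 in those of elav5/fne, with fit at 0 throughout, and hemocyte markers to 169 to 262, 34.5 to 310 and 229 to 608. The fat body sum of 614 was that of Canton-S replicate 2 alone. Lsp1beta held 112 and Obp99b 73.9 normalised CPM in that library, against at most 1.74 and 0.401 in any other. elav5 replicate 1, with the most muscle marker reads of its genotype, had the lowest level of its genotype for 8 of the 9 enzyme genes, all but Hex-A. Without elav5 replicate 1 and elav5/fne replicate 3 together, and with the muscle level in the model, all 9 enzyme genes fell in elav5/fne against both other genotypes.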

How the data were processed

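Per the labels' protocols, 40 ng of total RNA per sample went into Lexogen QuantSeq REV libraries, and the submitters' processing notes name the build dm6. Aligner, counter, annotation and strand use were not given in the sources used here. The deposited table holds a signal per gene that the authors obtained by dividing whole reads by 1 size factor per library, as read from the values: 100% of them came out whole within 0.1 reads, and no per-library depth other than these recovered reads was used. All values were then divided by the mean deposited column total and multiplied by 1e6 (normalised CPM). Of the gene IDs, 17251 matched symbols of the BDGP6.54 annotation, from which the coordinates come, and 170 did not. The annotation spells Pyk as PyK.

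The planned test assumed CPM values and was kept: log2(normalised CPM + 1) was fitted with limma 3.58.1 (trend) by genotype over 9 libraries, for genes whose mean reached 1, with Benjamini-Hochberg adjustment and a threshold of 0.05. Single genes were also tested by exact permutation. The code was tested on simulated data. Named genes were all 10 members, up to 4 genes of each pathway list by lowest p in the double mutant against Canton-S, other glycolytic genes whose mean reached 10, and the 5 genes most like ERR. The members and the 14 lists were chosen with earlier results of these data known; 4 entries had no match. Alternatives were pseudocounts of 0.25 and 5, no filter or a minimum mean of 10, TMM, median of ratios and library total scaling, DESeq2 1.42.0 and the edgeR 4.0.16 quasi-likelihood test on recovered reads, a replicate block, the muscle marker level as a covariate, fits over 2 genotypes, and libraries left out. R 4.3.3 and Python 3.11.15 were used. Sequences of these genes were not used here.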

Additional observations from a re-analysis of the deposited data

How the results depend on the processing

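In 22 other settings, 396 of 396 values of the 9 enzyme genes in the comparisons of elav5/fne kept their direction and their call. They ranged from -1.86 to -0.78 against Canton-S (largest adjusted p 0.00400) and from -1.53 to -0.76 against elav5 (largest adjusted p 0.00858). Of 725 values of named pathway and regulator genes, 687 kept their call, 38 lost it and 0 changed direction. Most of these genes were named for a low p in elav5/fne against Canton-S, and their elav5 values entered only where called. The choice of genes therefore favoured kept calls. edgeR called 4089 genes in elav5/fne against Canton-S, beside 4056 by limma, but the balance of higher and lower calls differed. By edgeR 2008 were higher and 2081 lower, and by limma 2418 were higher and 1638 lower.

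In elav5 against Canton-S the number of members called was 2, but 5 with library total scaling (Pgk, Pyk and Ldh added) and 1 to 3 with 1 library left out. The calls over all genes numbered 1428, and 909 with the replicate block, 2148 with DESeq2 and 706 to 1532 with 1 library left out, 706 when Canton-S replicate 1 was missing and 727 when replicate 2 was. Deviations of same-numbered libraries correlated at -0.697 to 0.199. Whether libraries of the same number were prepared together cannot be told from these values. The replicate block changed no call of a member.

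Uncalled members changed sign in elav5 against Canton-S. With the muscle covariate the log2 differences were 0.03 for Ald1, 0.11 for Tpi, 0.05 for Eno and 0.0 for ERR, and with elav5 replicate 1 and elav5/fne replicate 3 both left out they were 0.02, 0.05 and 0.0 for Ald1, Tpi and Eno. Gapdh1 was at -0.06 with library total scaling. With 1 library left out the ranges were -0.12 to 0.02 for Ald1, -0.23 to 0.05 for Tpi, -0.04 to 0.21 for Gapdh1, -0.23 to 0.0 for Eno and -0.19 to 0.05 for ERR. In elav5/fne against Canton-S, ERR was at -0.06 with TMM, -0.04 with median of ratios scaling, -0.07 with edgeR and -0.05 with DESeq2, and ranged from -0.04 to 0.20 with 1 library left out. The cause of these shifts was not tested. ERR rests on 192 to 328 reads per library.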
